A study of Mus musculus with 6 samples.

Results

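The granulocyte genes described here were the calprotectin pair S100a8 and S100a9, the stefin A copies Stfa1, Stfa2, Stfa2l1 and Stfa3, and the neutrophil genes Retnlg, Ngp, Camp and Ltf. They are 10 of the 27734 genes in the deposited table, taken by gene symbol, and the 4 stefin copies were also summed. They were picked because they were low in the mutant libraries, so their mutant against wild-type values are a description and carry no test. Expression was measured in rib chondrocytes, the cells that make cartilage, from mouse embryos at E18.5, late in gestation. The 3 mutant libraries came from Jab1 flox/flox; Col2a1-Cre embryos, in which Cre driven by the Col2a1 promoter deletes Jab1 in cartilage cells, and the 3 other libraries from wild-type embryos, for which the labels give no further genotype. Ribs were digested with pronase and then collagenase, and cells were collected without culture, so blood and marrow cells freed with the cartilage can be in the samples. Stranded, ribosomal RNA-depleted total RNA libraries were read as single ends of 50 bases.

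Neutrophils are granulocytes, short-lived white blood cells that are made in the marrow and in the fetal liver and that kill microbes with proteins stored in granules or held in the cytosol. S100A8 and S100A9 pair to form calprotectin, which binds calcium and withholds zinc and manganese from microbes and makes up much of the cytosolic protein of a neutrophil. Stefin A proteins are small cytosolic inhibitors of cysteine cathepsins, and in the mouse the ancestral gene has multiplied into a tandem cluster on chromosome 16. Granule proteins are made in order during maturation, with myeloperoxidase and elastase early, and lactoferrin, cathelicidin and NGP later.

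The 4 stefin copies are shown because their likeness limits how reads of 50 bases can be assigned to 1 copy. Over the coding sequence of GENCODE M21 transcripts (build mm10), Stfa2 and Stfa2l1 were identical at 298 of 309 aligned positions (96.4%). Stfa3 matched Stfa2 at 80.9% of positions and Stfa2l1 at 81.6%. For Stfa1 the share with the 3 others was 56.2 to 61.2%, but gaps in the alignment were counted as differences. Its annotated coding sequence is longer, at 384 against 309 bases, so this share understates the likeness of the bases that do align. In the coding stretches of 132 bases that follow, 5′ to 3′, capitals mark bases that differ from Stfa2, of which there are 22 in Stfa1, 2 in Stfa2l1 and 18 in Stfa3.
Stfa1: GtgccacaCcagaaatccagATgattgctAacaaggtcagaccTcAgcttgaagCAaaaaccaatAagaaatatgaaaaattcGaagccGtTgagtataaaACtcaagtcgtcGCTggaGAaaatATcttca
Stfa2: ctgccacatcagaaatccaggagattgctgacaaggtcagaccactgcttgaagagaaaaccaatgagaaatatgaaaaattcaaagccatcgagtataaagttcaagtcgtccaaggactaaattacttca
Stfa2l1: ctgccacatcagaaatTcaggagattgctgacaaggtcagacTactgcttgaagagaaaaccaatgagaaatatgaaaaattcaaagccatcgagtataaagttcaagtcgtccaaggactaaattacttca
Stfa3: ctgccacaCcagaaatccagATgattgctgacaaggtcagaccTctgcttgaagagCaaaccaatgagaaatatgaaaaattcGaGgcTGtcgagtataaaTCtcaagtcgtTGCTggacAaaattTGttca

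Of all 50-base windows in the transcript, 62 of 422 (14.7%) in Stfa2 and 62 of 370 (16.8%) in Stfa2l1 occurred also in a copy, in each case the other of that pair. Stfa3 shared none of its 363 windows. Stfa1 shared 111 of 465 windows (23.9%), none of them with Stfa2, Stfa2l1 or Stfa3, and 89 of them with BC100530, a further copy in the cluster that is not among the 10 genes. Values of Stfa2 and Stfa2l1, and of Stfa1 and BC100530, are therefore uncertain as single genes, since how the authors' counting divided such reads is not given in the sources used here.

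**Figure D1:**
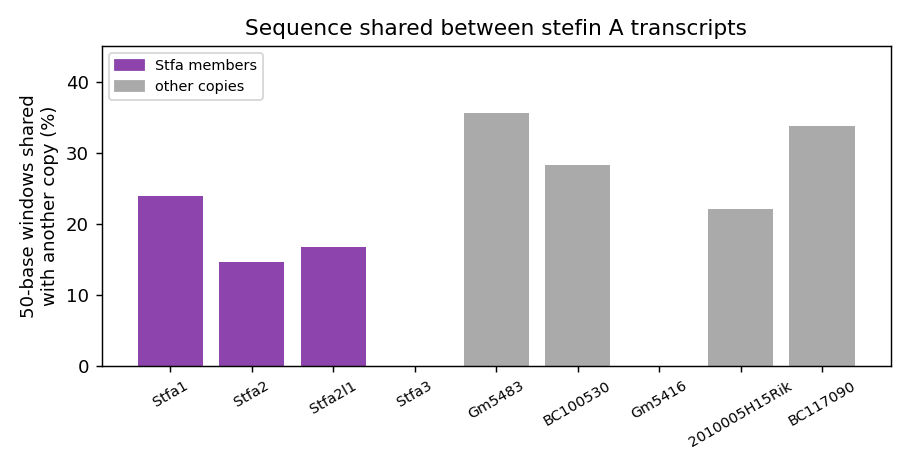
Share of 50-base transcript windows (y axis, percent) found identically in at least 1 of the 8 other stefin A copies in the table (x axis). Stfa3 and Gm5416 share no window, Stfa2 and Stfa2l1 share 14.7% and 16.8%, and Gm5483 shares most, at 35.6%.

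The stefin promoters are shown because the 4 genes differed between the groups in the same direction. The bases from 80 before RefSeq's transcription start to the last base before it (GRCm38.p6, the assembly of mm10) are given 5′ to 3′ on the strand of the gene. Capitals mark the run TTTAAAAC, chosen after the sequences had been seen, which started 30, 29, 33 and 31 bases before the start of Stfa1, Stfa2, Stfa2l1 and Stfa3. On either strand it was in 562 of 32851 RefSeq promoter windows of 300 bases (1.71%).
Stfa1, chr16:36277068-36277147, plus strand: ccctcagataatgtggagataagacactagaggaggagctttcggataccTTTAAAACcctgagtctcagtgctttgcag
Stfa2, chr16:36408364-36408443, minus strand: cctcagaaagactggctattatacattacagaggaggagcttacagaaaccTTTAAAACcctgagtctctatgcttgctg
Stfa2l1, chr16:36156731-36156810, plus strand: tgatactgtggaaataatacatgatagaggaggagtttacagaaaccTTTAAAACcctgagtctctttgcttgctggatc
Stfa3, chr16:36455393-36455472, minus strand: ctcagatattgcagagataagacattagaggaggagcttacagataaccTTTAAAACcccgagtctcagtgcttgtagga

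All 10 genes had a RefSeq promoter window. The letters TTGCNNAA, which C/EBP factors of the myeloid lineage can bind, were found on either strand in 5 of them (S100a9, Stfa1, Retnlg, Ngp and Ltf), against 10.8% of all windows. The matches of Ngp and Ltf, both secondary granule genes on chromosome 9, are shown in capitals, read on the plus strand, because Ngp holds these letters in both orientations. Counted from the start, Ngp had TTGCCCAA at -138, shown here, and TTGGGCAA at -11, which is not in the stretch shown, and Ltf had TTGGGCAA at -75.
Ngp, chr9:110419640-110419707, plus strand: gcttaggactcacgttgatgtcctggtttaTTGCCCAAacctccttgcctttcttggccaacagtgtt
Ltf, chr9:111019187-111019254, plus strand: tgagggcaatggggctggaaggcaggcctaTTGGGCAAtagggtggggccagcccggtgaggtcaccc
The letters GAGGAA, the core bound by PU.1 and other ETS factors, were on either strand in S100a8, Stfa1, Stfa2, Stfa2l1, Stfa3 and Ltf, against 28.3% of all windows. TATAAA was found in S100a8, where it began 30 bases before the start, and in S100a9, where it began at the start itself, against 13.6% of windows. A match describes letters and does not show that a factor binds.

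Levels are the authors' deposited FPKM, in which fragments are scaled by gene length and by library size. Column totals lay between 571180 and 631534 FPKM. Cops5, which encodes Jab1, was at 17.0 to 18.0 FPKM in the mutant libraries and at 39.8 to 42.3 FPKM in the wild-type libraries, and it fell by 1.18 on the log2(FPKM + 1) scale (SE 0.0599, limma with Benjamini-Hochberg adjustment, adjusted p = 6.5e-04). Cartilage genes were abundant, with 11 of 14 listed chondrocyte markers in the table summing to 6307 to 10179 FPKM in the mutant libraries and 8777 to 10371 FPKM in the wild-type libraries. Col9a1, Col11a1 and Snorc were not analysed here. Libraries are named by column number, and 2 columns (number 2 of each group) could be matched to their group only.

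The groups also differed in sex-linked transcripts. Xist was at 37.3, 0.0176 and 0.0244 FPKM in mutant columns 0, 1 and 2 and at 63.1, 64.6 and 65.9 FPKM in wild-type columns 0, 1 and 2. The Y-linked gene Ddx3y was at 7.78, 46.1 and 36.0 FPKM in the mutant columns and at no more than 0.450 FPKM in the wild-type columns. Mutant column 0 thus carried both kinds of transcript, and sex and genotype cannot be told apart in the other columns. Wild-type column 0 carries another date in its label than the other dated samples, and that date holds no mutant library, so a value within it cannot be given.

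S100a8 (ENSMUSG00000056054, chr3:90668978-90670035, plus strand) encodes the smaller calprotectin subunit. It was at 3.26, 0.204 and 1.55 FPKM in mutant columns 0, 1 and 2, against 40.3, 26.7 and 76.1 FPKM in wild-type columns 0, 1 and 2. The groups did not overlap, and mutant column 1 was lowest and wild-type column 2 highest. Its mean was 1.67 ± 1.53 FPKM in mutant and 47.7 ± 25.5 FPKM in wild-type libraries (SD, n = 3 each), so the mutant mean was 3.50% of the wild-type mean, a difference of -4.24 on the log2(FPKM + 1) scale.

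S100a9 (ENSMUSG00000056071, chr3:90692632-90695721, minus strand) encodes the other subunit and lies close by on the same chromosome. It was at 2.89, 0.605 and 0.915 FPKM in the mutant columns, against 58.9, 37.1 and 105 FPKM in the wild-type columns. Again no mutant value reached a wild-type value, and the order of the wild-type libraries was that of S100a8. The mean was 1.47 ± 1.24 FPKM in mutant and 67.0 ± 34.7 FPKM in wild-type libraries (SD, n = 3 each), a mutant level of 2.19% and a log2 difference of -4.77. Among the 14012 genes whose mean reached 1 FPKM, S100a9 had the 4th and S100a8 the 7th most negative log2 difference.

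The subunits kept a narrow ratio in the wild-type libraries. S100a9 over S100a8, both per length, was 0.887, 2.96 and 0.590 in mutant columns 0, 1 and 2 and 1.46, 1.39 and 1.38 in wild-type columns 0, 1 and 2. The mutant ratios rest on values of at most 3.26 FPKM. The summed level of the pair was 3.14 ± 2.73 FPKM in mutant and 115 ± 60.2 FPKM in wild-type libraries (SD, n = 3 each).

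**Figure D2:**
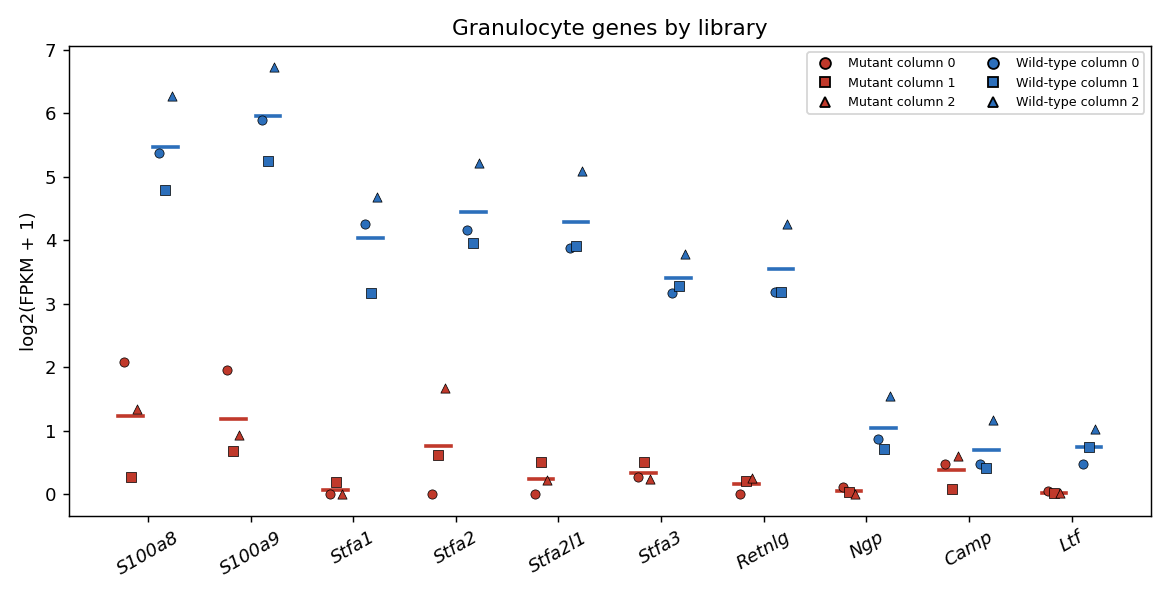
Level of each of the 10 genes in every library as log2(FPKM + 1) (y axis), with mutant libraries left of wild-type libraries and a bar at each group mean. Of the 10 genes, only Camp has mutant and wild-type points that overlap, and wild-type column 2 is the highest wild-type point of every gene.

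Stfa1 (ENSMUSG00000071562, chr16:36276951-36285373, plus strand), a stefin A copy, was listed at 0, 0.144 and 0 FPKM in mutant columns 0, 1 and 2. In the wild-type columns it was at 18.1, 8.04 and 24.6 FPKM, so its single mutant value above 0 was 1.79% of the lowest wild-type value. A listed 0 need not mean absence, since 285 values in the table were 0 where both other libraries of the group had at least 5 FPKM, and mutant means are left out for genes with such a 0.

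Stfa2 (ENSMUSG00000022902, chr16:36403992-36408457, minus strand) was at 0, 0.544 and 2.20 FPKM in the mutant columns, against 17.0, 14.5 and 36.3 FPKM in the wild-type columns. Its highest mutant value was 15.1% of its lowest wild-type value, a larger share than in the 3 other stefin members. Its near copy Stfa2l1 (ENSMUSG00000059657, chr16:36156811-36161953, plus strand) was at 0, 0.425 and 0.176 FPKM in the mutant columns and at 13.7, 14.1 and 33.1 FPKM in the wild-type columns. Both were listed at 0 in mutant column 0 and were highest in wild-type column 2, and neither had overlapping groups.

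Stfa3 (ENSMUSG00000054905, chr16:36450537-36455392, minus strand), which shares no 50-base window with another copy, was at 0.212, 0.431 and 0.179 FPKM in the mutant columns. It was at 7.98, 8.69 and 12.8 FPKM in the wild-type columns. It was the only stefin member above 0 in all libraries, and its groups did not overlap. Its mean was 0.274 ± 0.137 FPKM in mutant and 9.81 ± 2.58 FPKM in wild-type libraries (SD, n = 3 each), a mutant level of 2.79% and a log2 difference of -3.06. A low mutant level was thus also measured in a copy with no stretch of read length in common with another copy.

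Summed over the 4 members, stefin A was at 0.212, 1.54 and 2.55 FPKM in mutant columns 0, 1 and 2, against 56.8, 45.3 and 107 FPKM in wild-type columns 0, 1 and 2. In mutant column 0 the sum was Stfa3 alone, since Stfa1, Stfa2 and Stfa2l1 were listed at 0 there. The mean that follows counts listed 0 values as 0. The highest mutant sum was 5.64% of the lowest wild-type sum. The mean sum was 1.44 ± 1.18 FPKM in mutant and 69.7 ± 32.7 FPKM in wild-type libraries (SD, n = 3 each), a mutant level of 2.06% and a log2 difference of -4.90. Within the wild-type sum no copy prevailed. Stfa1 made up 31.9, 17.7 and 23.1% of it in wild-type columns 0, 1 and 2, and Stfa2 30.0, 32.1 and 34%, while Stfa3 had the lowest share in columns 0 and 2, with 11.9% in column 2.

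The table holds 5 more stefin copies of the cluster, which are not among the 10 genes. All 5 had groups that did not overlap, with lower values in the mutant, against 11.4% of all genes in the table, and the 4 that were tested all fell, against 2.59% of genes tested. Gm5483 was at 0.350 ± 0.173 FPKM in mutant and 20.4 ± 8.94 FPKM in wild-type libraries (SD, n = 3 each) and fell by 3.91 on the log2 scale (SE 0.296, limma with Benjamini-Hochberg adjustment, adjusted p = 0.0037). BC100530 also fell (0.164 ± 0.0540 FPKM in mutant and 8.65 ± 4.98 FPKM in wild-type libraries, SD, n = 3 each, limma adjusted p = 0.017). Gm5416 and 2010005H15Rik were listed at 0 in every mutant library, against 3.45 to 11.9 and 3.72 to 9.54 FPKM in wild-type libraries.

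The 4 tested copies passed the filter on low values through their wild-type level alone, so they are not separate evidence. BC100530 shared 89 of its 570 windows of 50 bases with a member, and BC117090, which was not tested, 42 of 338. Gm5483, Gm5416 and 2010005H15Rik shared 0 windows with a member. Gm5483 and 2010005H15Rik shared 130 windows with each other, so their values are uncertain as single genes. Leaving out mutant column 0 left 3 falling copies, and leaving out mutant column 1 or mutant column 2 left 1. Of the wild-type columns, leaving out column 0 left 2 falling copies, column 1 left 3 and column 2 left 4. Over all 9 copies, with listed 0 values counted as 0, the sum was 2.01 ± 1.38 FPKM in mutant and 112 ± 55.2 FPKM in wild-type libraries (SD, n = 3 each), a mutant level of 1.79%.

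**Figure D3:**
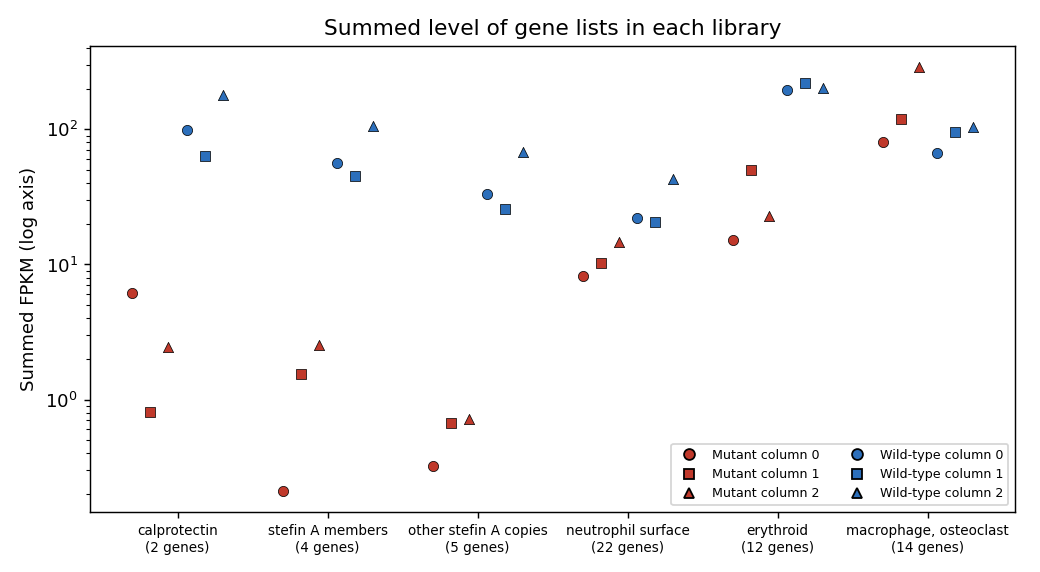
Summed FPKM per library (log axis) of calprotectin, the 4 stefin A members, the 5 other stefin A copies and 3 marker lists, with mutant libraries left of wild-type libraries. The sums of the 4 stefin members are at 0.212 to 2.55 FPKM in mutant libraries and at 45.3 to 107 FPKM in wild-type libraries. The list of other neutrophil granule genes is not drawn.

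Retnlg (ENSMUSG00000022651, chr16:48872621-48874496, plus strand) encodes a resistin-like protein of mouse granulocytes. It was at 0, 0.162 and 0.201 FPKM in mutant columns 0, 1 and 2, against 8.11, 8.12 and 18.2 FPKM in wild-type columns 0, 1 and 2. Wild-type columns 0 and 1 were nearly equal, column 2 was highest, and no mutant value exceeded 2.48% of the lowest wild-type value. In the wild-type columns Retnlg was at 13.8, 21.9 and 17.4% of S100a9 per length. Its relatives Retn and Retnla were at no more than 0.199 FPKM in any library and were not tested.

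The 3 secondary granule genes lie on chromosome 9 and were low in both groups, so none of them reached the mean of 1 FPKM needed for testing. Ngp (ENSMUSG00000032484, chr9:110419747-110423012, plus strand), which encodes neutrophilic granule protein, was at 0.0785, 0.0278 and 0 FPKM in the mutant columns and at 0.830, 0.637 and 1.91 FPKM in the wild-type columns. Ltf (ENSMUSG00000032496, chr9:111019271-111042767, plus strand), which encodes the iron-binding protein lactoferrin, was at 0.0327, 0.0113 and 0.0146 FPKM in the mutant columns and at 0.391, 0.672 and 1.04 FPKM in the wild-type columns. Neither had overlapping groups. On the log2(FPKM + 1) scale their differences were only -0.99 and -0.72, because adding 1 shrinks differences among values this low.

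Camp (ENSMUSG00000038357, chr9:109847379-109849617, minus strand), which encodes the antimicrobial cathelicidin, stood apart. It was at 0.387, 0.0548 and 0.513 FPKM in the mutant columns, against 0.398, 0.337 and 1.26 FPKM in the wild-type columns. Mutant columns 0 and 2 lay above wild-type column 1, so the groups overlapped. The mean was 0.318 ± 0.237 FPKM in mutant and 0.667 ± 0.519 FPKM in wild-type libraries (SD, n = 3 each), a mutant level of 47.7%, against 2.19 to 3.50% for S100a8, S100a9, Stfa3 and Ltf, the other members with no listed 0.

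In all, 9 of the 10 genes had groups that did not overlap, with the mutant lower, as did 11.4% of all genes in the table (15.9% of genes tested). Since the genes were chosen for this contrast, nothing is read from that count. The median log2 difference of the 10 genes was -3.53, beside -0.0039 over the 14012 genes tested, and 1.42% of genes tested had a mutant mean under 10% of the wild-type mean. Of 30 mutant values of the 10 genes, 6 were listed at 0. In bulk RNA, fewer granulocytes and less RNA of these genes per granulocyte cannot be told apart.

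The wild-type libraries differed among themselves in all 10 genes in 1 respect. Wild-type column 2 was the highest in every gene, at 1.53 (Stfa3) to 3.44 (Camp) times the mean of wild-type columns 0 and 1, with a median of 2.26. Over the 14012 genes tested, column 2 was the highest wild-type library in 28.9%, and the median ratio was 0.998. The counts for the 10 genes and for the lists below also include genes whose mean was under 1 FPKM. No such share was computed for genes that low, so the sets are unlike. The lists of other neutrophil genes had the same order, with column 2 highest in 20 of 22 granule genes and in 20 of 22 surface and signalling genes, and so did the 4 general leukocyte genes. Column 2 was also highest in 11 of 14 macrophage and osteoclast genes, 9 of 13 lymphoid genes, 7 of 8 mast cell, basophil and eosinophil genes and 4 of 5 megakaryocyte genes. Outside these, it was highest in 4 of 5 muscle genes, with a median ratio of 2.03. It was highest in 5 of 12 erythroid, 1 of 11 chondrocyte, 1 of 5 endothelial and 1 of 6 keratinocyte genes.

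**Figure D4:**
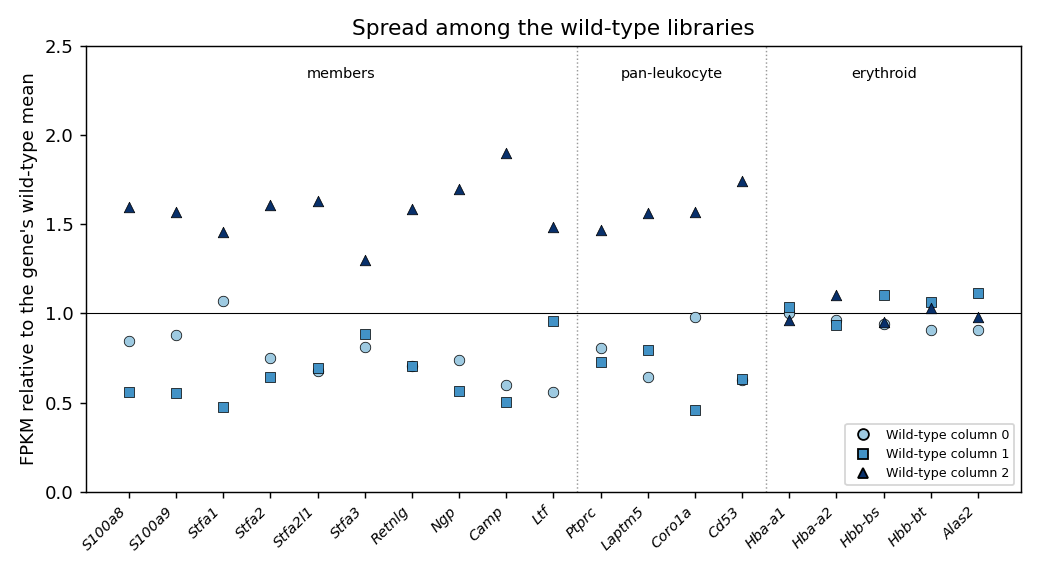
FPKM in each wild-type library divided by the gene's mean over the 3 wild-type libraries, for the 10 members, the 4 pan-leukocyte genes and the 5 erythroid genes whose mean reached 1 FPKM. Column 2 is highest in every member and every pan-leukocyte gene and lies among the other columns or near them in the erythroid genes.

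Other neutrophil genes were taken from a list of 22 granule and effector genes and a list of 22 surface, receptor and oxidase genes. In the granule list 14 of 22 were lower in every mutant than in every wild-type library, against 11.4% of all genes in the table, and 5 were at 0 in all mutant libraries. These 5 were low in wild-type libraries too, at no more than 1.17 FPKM, and Fcnb and Prg3 were at 0 in at least 1 of those. Most genes of the list were low, and 8 could be tested, of which 1 fell and none rose, beside 2.59% of all genes tested that fell. At an unadjusted p under 0.05 by limma were 5 of the 8, all lower in the mutant. Mmp8, neutrophil collagenase, was at 0.219 ± 0.0790 FPKM in mutant and 3.72 ± 1.77 FPKM in wild-type libraries (SD, n = 3 each) and fell by 1.89 (SE 0.273, limma adjusted p = 0.023). It passed the filter on low values through its wild-type level alone, as the stefin copies did. Its adjusted p was above 0.05 when any library other than wild-type column 2 was left out.

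Mpo, the early granule enzyme myeloperoxidase, was at 0.0771, 0 and 0.0568 FPKM in the mutant columns and at 1.51, 0.322 and 5.16 FPKM in the wild-type columns. The wild-type libraries were widely spread, and the difference did not pass (limma adjusted p = 0.20). Lyz2, a lysozyme of neutrophils and macrophages, was at 7.57 ± 4.16 FPKM in mutant and 31.1 ± 12.8 FPKM in wild-type libraries (SD, n = 3 each, limma adjusted p = 0.064). Mmp9, which osteoclasts also make, was at 25.5 ± 22.2 FPKM in mutant and 16.7 ± 8.60 FPKM in wild-type libraries (SD, n = 3 each, limma adjusted p = 0.79), and Anxa1, which many cell types express, was at 35.0 ± 13.8 FPKM in mutant and 23.4 ± 2.11 FPKM in wild-type libraries (SD, n = 3 each, limma adjusted p = 0.41). Without mutant column 0, Anxa1 rose (log2 difference 0.85, limma adjusted p = 0.029).

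In the surface list 17 of 22 genes were lower in every mutant library, against 11.4% of all genes in the table, and 1 was higher in every mutant library, against 11.6%. Fpr1, Ly6g, Trem3 and Mcemp1 were at 0 in all mutant libraries. The summed level of the surface list was 8.24 to 14.6 FPKM in mutant and 20.6 to 43.0 FPKM in wild-type libraries. The sum of the granule list overlapped between the groups, at 35.2 to 110 FPKM in mutant and 73.3 to 123 FPKM in wild-type libraries. Ly6g, the surface marker that defines mouse neutrophils, was at 0.277 to 0.538 FPKM in wild-type libraries. Csf3r, the receptor for the granulocyte growth factor G-CSF, was at 0.00903 to 0.0874 FPKM in mutant and 0.945 to 1.79 FPKM in wild-type libraries. Cxcr2, the receptor for neutrophil-attracting chemokines, was at 0.0193 to 0.0945 FPKM in mutant and 0.822 to 1.81 FPKM in wild-type libraries.

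None of these 3 receptors and markers was tested, since their means were under 1 FPKM. Of the 6 surface genes tested, 1 rose and none fell, beside 3.48% of all genes tested that rose and 2.59% that fell. At an unadjusted p under 0.05 by limma, 3 were lower and 1 was higher in the mutant. The one that rose was Tlr2, a receptor for bacterial lipoproteins that chondrocytes and fibroblasts can also express, at 4.47 ± 0.534 FPKM in mutant and 2.67 ± 0.219 FPKM in wild-type libraries (SD, n = 3 each, log2 difference 0.57, SE 0.108, limma adjusted p = 0.042). The call on Tlr2 was lost on leaving out any 1 of the 6 libraries. Itgam, an integrin of neutrophils and macrophages, was at 0.311 ± 0.178 FPKM in mutant and 1.86 ± 0.933 FPKM in wild-type libraries (SD, n = 3 each, limma adjusted p = 0.082).

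**Figure D5:**
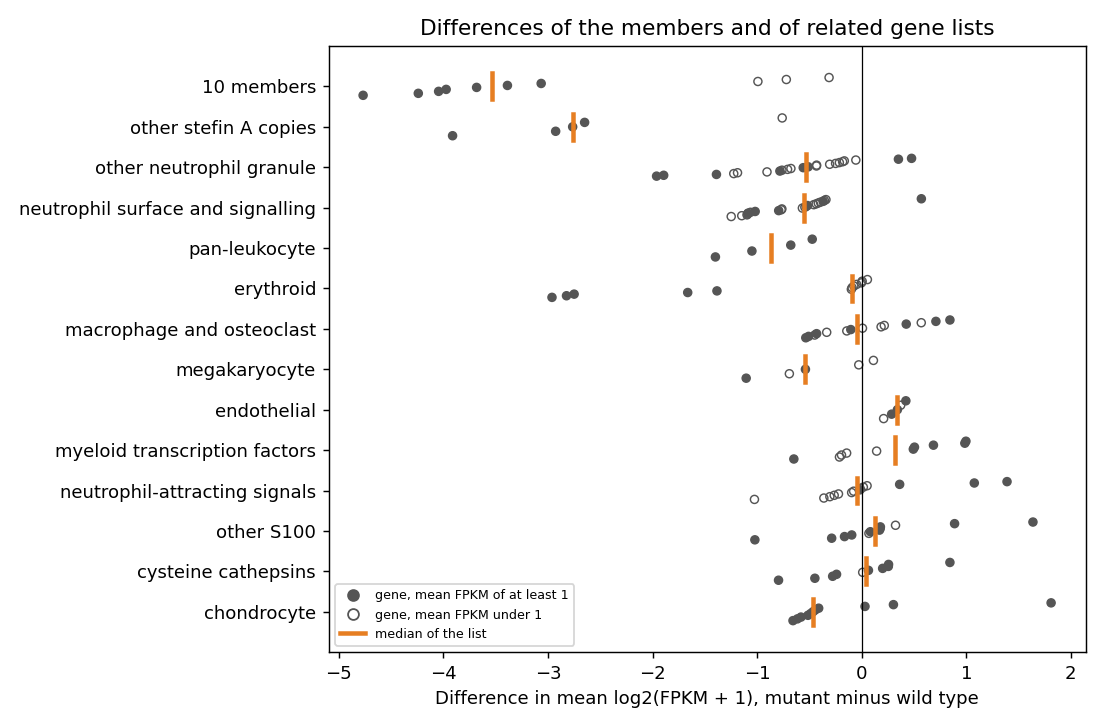
Mutant minus wild-type difference of log2(FPKM + 1) for each gene of the members and of other gene lists. Filled points have a mean of 1 FPKM or more, open points are lower, and the bar marks the median. Of the members, 7 lie below -3, and S100a9 is lowest at -4.77, and macrophage and osteoclast genes lie on both sides of 0.

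Markers of other blood and tissue cells moved unequally with the members, and their part in the result was not tested. The 4 pan-leukocyte genes summed to 2.42 to 6.33 FPKM in mutant and 6.80 to 17.7 FPKM in wild-type libraries, and 0 of the 4 passed by limma, with 2 at an unadjusted p under 0.05, both lower, beside 6.07% of genes tested that passed in either direction. Ptprc, which encodes CD45, was at 0.373 ± 0.220 FPKM in mutant and 1.88 ± 0.765 FPKM in wild-type libraries (SD, n = 3 each, limma adjusted p = 0.069). Of 14 macrophage and osteoclast genes in the table, 1 was lower in every mutant library, against 11.4% of all genes in the table, 0 of the 7 tested passed by limma, with 0 at an unadjusted p under 0.05, and the 14 genes summed to 81.0 to 289 FPKM in mutant and 66.5 to 105.0 FPKM in wild-type libraries.

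Erythroid genes were lower in the mutant, with 5 of 5 tested genes falling, against 2.59% of all genes tested. Hba-a1, an adult alpha globin, was at 3.85 ± 2.11 FPKM in mutant and 29.4 ± 1.06 FPKM in wild-type libraries (SD, n = 3 each, limma adjusted p = 0.015), and the 12 genes of the list in the table summed to 15.1 to 49.6 FPKM in mutant and 196 to 221 FPKM in wild-type libraries. No erythroid gene passed without mutant column 2 or without any 1 wild-type column, 4 passed without mutant column 1 and 5 without mutant column 0. The mutant sum was 14.2% of the wild-type sum, beside 2.74% for calprotectin and 2.06% for the stefin members.

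Lymphoid genes (13 in the table) summed to 0.273 to 0.533 FPKM in mutant and 0.332 to 2.55 FPKM in wild-type libraries, and mast cell, basophil and eosinophil genes (8) to 0.556 to 0.764 FPKM in mutant and 0.468 to 2.10 FPKM in wild-type libraries. No gene of either list was tested. Of the megakaryocyte and platelet genes, 1 of 2 tested fell, beside 2.59% of all genes tested. It was Gp1bb, at 3.38 ± 0.677 FPKM in mutant and 8.37 ± 0.893 FPKM in wild-type libraries (SD, n = 3 each, limma adjusted p = 0.017), a call lost on leaving out any 1 wild-type column. By limma 0 of 3 endothelial and 0 of 3 muscle genes tested passed, beside 6.07% of all genes tested in either direction. In either list 0 were at an unadjusted p under 0.05.

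Keratinocytes also make calprotectin and stefin A in skin. Krt5, which defines basal keratinocytes, was at 0.0432, 0.0151 and 0.0796 FPKM in the mutant columns and at 0 in all wild-type libraries. Krt1 was at no more than 0.0528 FPKM in mutant and 0.0808 FPKM in wild-type libraries, and Lor at no more than 0.229 FPKM in mutant and 0.110 FPKM in wild-type libraries. Other genes of the list were higher. Krt10 was at 3.10 to 4.33 FPKM in mutant and 2.78 to 3.94 FPKM in wild-type libraries, Epcam at 1.03 to 2.28 FPKM in mutant and 0.605 to 0.973 FPKM in wild-type libraries, and Krtdap at 0 to 1.76 FPKM in mutant and 0 to 0.768 FPKM in wild-type libraries. The list summed to 4.95 to 7.24 FPKM in mutant and 3.56 to 5.76 FPKM in wild-type libraries, and its part in the result was not tested. Of the 6 keratinocyte genes in the table, 1 was lower and 2 were higher in every mutant library, against 11.4% and 11.6% of all genes in the table. By limma 0 of the 2 tested passed, beside 6.07% of all genes tested. At an unadjusted p under 0.05 was 1 of the 2, which was higher in the mutant.

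Genes that act with the members were listed by role. Of 10 transcription factors of myeloid cells, 6 were tested, of which 3 rose and none fell, beside 3.48% of genes tested that rose. Cebpa, whose product sets granulocyte fate in the marrow, was at 5.20 ± 0.399 FPKM in mutant and 2.12 ± 0.421 FPKM in wild-type libraries (SD, n = 3 each, limma adjusted p = 0.017). Cebpd and Runx1 also rose (limma adjusted p = 0.044 and 0.046). All 3 are expressed outside blood as well, and the count was 2 without mutant column 0, 1 without wild-type column 2 and 0 without any 1 of the 4 other columns. Cebpe, which drives the secondary granule genes, was at 0, 0 and 0.117 FPKM in the mutant columns and at 0.297, 0.0683 and 0.254 FPKM in the wild-type columns, and was not tested.

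Of 14 genes for signals that draw or mature neutrophils, 4 were tested and 0 passed by limma, beside 6.07% of all genes tested. At an unadjusted p under 0.05 were 2 of the 4, both higher in the mutant. Cxcl1, a chemokine for neutrophils, was at 2.23 ± 0.832 FPKM in mutant and 0.518 ± 0.305 FPKM in wild-type libraries (SD, n = 3 each, limma adjusted p = 0.077). Cxcl12, which holds neutrophils in the marrow, was at 7.54 ± 3.34 FPKM in mutant and 2.19 ± 0.889 FPKM in wild-type libraries (SD, n = 3 each, limma adjusted p = 0.065). For both, every mutant library was above every wild-type library, as in 16.3% of all genes tested. Il1b, an inflammatory cytokine that neutrophils and macrophages make, was listed at 0 in all mutant libraries, against 0.610 to 1.54 FPKM in wild-type libraries. Csf3, which encodes G-CSF, was at no more than 0.0748 FPKM in any library.

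Receptors for calprotectin and their partners did not pass the limma test, with 0 of 6 tested rising or falling, beside 6.07% of all genes tested. Of the 6, 2 were higher in the mutant at an unadjusted p under 0.05. Tlr4, the receptor that S100A8 and S100A9 activate, was at 3.86 ± 0.760 FPKM in mutant and 1.96 ± 0.432 FPKM in wild-type libraries (SD, n = 3 each, limma adjusted p = 0.073). Ager, which encodes the receptor RAGE, was at 0.310 to 0.376 FPKM in mutant and 0.491 to 0.614 FPKM in wild-type libraries.

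Of the other S100 genes, 9 were tested, 1 rose and none fell, beside 3.48% of all genes tested that rose. S100a4, a fibroblast and leukocyte member of the family, was at 420 ± 123 FPKM in mutant and 132 ± 29.1 FPKM in wild-type libraries (SD, n = 3 each) and rose by 1.64 on the log2 scale (SE 0.278, limma adjusted p = 0.034), opposite in sign to S100a8 and S100a9. That call held without mutant column 0 and was lost on leaving out any 1 of the 5 other columns. S100a1, S100a6 and S100b, which are abundant here, were not called.

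Of the cysteine cathepsins, the enzymes that stefins inhibit, 1 of 9 tested fell and none rose, beside 2.59% of genes tested that fell. Ctsh was at 11.7 ± 1.14 FPKM in mutant and 16.2 ± 0.694 FPKM in wild-type libraries (SD, n = 3 each, log2 difference -0.45, SE 0.0861, limma adjusted p = 0.043), a call lost on leaving out any 1 of the 6 libraries and under median-of-ratios scaling or quantile normalization. Cstb, the stefin B gene, expressed in most tissues, was at 83.1 ± 17.2 FPKM in mutant and 80.4 ± 6.43 FPKM in wild-type libraries (SD, n = 3 each, limma adjusted p = 0.94). Cst3, the secreted cystatin C gene, was at 257 ± 20.5 FPKM in mutant and 183 ± 16.6 FPKM in wild-type libraries (SD, n = 3 each, limma adjusted p = 0.054).

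Genes were ranked for likeness to the members by Pearson r over the 6 libraries with the mean of the members' standardized log2 values. The 1193 candidates were tested genes that spanned at least 1 on the log2 scale. Symbols made of Gm and digits, starting with Mir or Snor, or ending in Rik were left out by name. The stefin copies Gm5483, Gm5416 and 2010005H15Rik were therefore not ranked, while BC100530 was. Since the 6 points fall into the groups the members were chosen on, r is given with no p. The 10 highest were Mmp8 (0.992), BC100530 (0.992), Lcorl (0.990), Asprv1 (0.989), AB124611 (0.986), Shank1 (0.982), Dsg2 (0.980), Gamt (0.980), Ptprc (0.978) and Srgn (0.976). Mmp8, Ptprc and Srgn, which encodes the granule proteoglycan serglycin, are expressed in blood cells. Srgn was at 1.02, 0.966 and 0.808 FPKM in the mutant columns, against 3.17, 4.82 and 7.72 FPKM in the wild-type columns. Wild-type column 2 was highest, an order that ranking by likeness to the members favours. Lcorl and Gamt, which are not known as blood cell genes, were at 51.9% and 51.4% of their wild-type mean in the mutant libraries, by the ratio of means a smaller difference than in any of the 10 members.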

How the data were processed

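Expression was measured in rib chondrocytes of E18.5 mouse embryos, with 3 mutant and 3 wild-type libraries. The values the authors deposited are FPKM, per the name of the table, whose header gives the library columns. STAR, Cufflinks and Cuffdiff, and the mm10 build, are named in the submitters' processing notes. Settings, versions and any between-library scaling are not given in the sources used here. Read counts and depths are unknown, so no counting intervals are given. By their names 4 columns were matched to a sample and 2 to their group only. Whether libraries are separate embryos or litters is not in the labels. The p-values therefore cover only library-to-library spread, which could be technical.

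Values were transformed as log2(FPKM + 1), which understates changes of low genes. The 14012 genes whose mean reached 1 FPKM were tested two-sided with limma 3.58.1 in R 4.3.3 (eBayes with trend), Benjamini-Hochberg adjustment over all of them and a threshold of 0.05, after a test on simulated data. Rose and fell are used of genes that passed. An exact permutation test of 3 against 3 libraries has a smallest p of 0.1 and was not used.

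The members and the 21 other gene lists (219 memberships) were chosen with earlier results of these data known. The rule for naming genes took the members, Cops5 and, in each list, the 2 of smallest p and the 2 of highest mean. Not all genes that it took are described, for example Bsg, Cd14, Coro1a, Hbb-bs and Ctsk. No rule set which of them were left out. The 10 ranked most like the members, among the candidates described above, are also named. Others (Csf3r, Cxcr2, Ly6g, Fpr1, Trem3, Mcemp1, Il1b, Csf3, Cebpe, Ager, Mpo, S100a1, S100b, Gm5416, Krt1, Krt5, Krtdap, Lor, Retn, Retnla, Xist) were named for their known roles or values after those were seen. Of the gene identifiers, 99.4% matched GENCODE M21, which gave coordinates and transcripts. Alternatives were other pseudocounts, filters, scalings, library weights, a replicate block and leaving out each library.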

Additional observations from a re-analysis of the deposited data

How the results depend on the processing

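The members' median log2 difference of -3.53 lay between -3.75 and -3.16 when 1 library was left out, and was -5.25 with a pseudocount of 0.1 and -4.22 with 0.5. The summed stefin level, -4.90, lay between -5.23 and -4.46 when 1 library was left out, and was -5.88 with a pseudocount of 0.1. A smaller pseudocount by construction enlarges differences of low values. The 850 genes changed became 1488 with library weights and 461 with no filter, and 174 to 666 when 1 library was left out. The other neutrophil genes passing, 2 of 14, became 0 of 3 with a mean of at least 5 FPKM (fewer tested), 5 of 44 with no filter (Clec4e, Csf3r, Mmp8, Olfm4 and Trem1, all falling), and 0 to 1 when 1 library was left out. The 1 was Mmp8, falling, without wild-type column 2, and Anxa1, rising and not called with all libraries, without mutant column 0. Tlr2 was lost each time. Same-numbered libraries did not deviate together from their group means (r -0.0328, -0.0421 and -0.0226). With so few libraries this cannot tell whether they shared a litter or a preparation. With the replicate block 60 genes passed, 0 of the other neutrophil genes among them. The members' median of -3.53 was unchanged there by construction, since each block holds 1 library of each group.

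Some uncalled genes turned to a negative sign. When 1 library was left out, Acp5 lay between -0.096 and 1.27, Cstb between -0.10 and 0.20, Krt10 between -0.023 and 0.19 and Mmp9 between -0.31 and 0.92. Cstb was at -0.056 with quantile normalization, at -0.014 without mutant column 1, at -0.10 without mutant column 2 and at -0.037 without wild-type column 1. Without mutant column 2, Acp5 was at -0.096, Krt10 at -0.023 and Mmp9 at -0.31. Krt10 was at -0.0029 without wild-type column 2, Mmp9 at -0.0094 without wild-type column 0 and S100a6 at -0.000314 with quantile normalization. The cause was not tested. No member changed sign. The low mutant values limit what ratios between members can show there.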
